A study of Bos taurus with 63 samples.

Results

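TLR2 (ENSBTAG00000008008), TLR4 (ENSBTAG00000006240) and CD14 (ENSBTAG00000015032) are 3 of the 23010 genes counted in blood leukocytes of dairy dams and calves. They were chosen by identifier as cell-surface sensors of bacteria, by a rule that uses no measured value, although earlier results of these data were known when it was set. Their names are those given with the identifiers in the selection, because the reference annotation did not pair them. All 3 genes had reads in every library, with 288 to 8487 reads per gene and library, and all 3 passed the filter on low counts in each comparison.

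Toll-like receptors are membrane proteins of the innate immune system that bind conserved microbial molecules and signal through adaptor proteins to switch on inflammatory genes. TLR2 binds bacterial lipoproteins together with a partner receptor, and TLR4 binds lipopolysaccharide of the Gram-negative outer membrane together with the protein LY96. CD14 is a co-receptor on the cell surface that has no signalling domain of its own. It passes lipopolysaccharide to TLR4 and lipopeptides to TLR2. In blood, CD14 is best known as a marker of monocytes, and both receptors are found on monocytes and neutrophils. In cattle, these sensors are studied for their part in the defence against mastitis and infections of the newborn.

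RNA was extracted from the leukocytes of German Holstein animals after the red cells had been lysed, although the labels call the tissue whole blood. The study asked how heat stress (HS) acts on pregnant dams directly and on their calves. The 63 libraries are from 19 control dams, 12 dams under direct HS, 30 control calves, 1 calf labelled with heat stress (HS-IU_2048) and 1 dam with no information on its HS status (HS-IU_1804). The study had removed this dam because its expression placed it among the calves. Direct HS means a daily mean temperature-humidity index of at least 60 on the day before the blood was taken. Dams were dry cows shortly before calving and calves were newborn females, so age, pregnancy, feeding and season cannot be told apart in a comparison of calves with dams. The label of HS-IU_2048 does not say whether the calf or its mother was under HS. Likewise, the labels of the 30 control calves do not say whether the calf, its mother or both were free of HS. The study classed calves by each kind of HS, so control calves may have had the other kind. The labels pair no dam with a calf, so relatives could not be blocked, and the p-values below treat the animals as independent. In RNA of mixed leukocytes, fewer cells of a type and less RNA per cell cannot be told apart. Markers of leukocyte types could not be looked up without gene names, so neither the labelled tissue nor the cell composition was checked.

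Reads on genes ranged from 4340680 to 19584521 per library (median 7271841), and every library has the same batch in the labels. Levels are given in CPM, the reads of a gene scaled to a common library size after TMM normalisation, which rescales libraries under the assumption that most genes keep their level. CPM is not corrected for transcript length, so the levels of different genes are not compared. At the lowest count of each gene in each group, counting error alone gives a coefficient of variation of 3.66% to 5.89%, under the spread between animals of 11.2% to 84.7%. The upper value is that of CD14 in control calves, which was 47.7% without the calf HS-IU_2015. The level of no member was related to library size within a group past the adjustment over 9 relations (lowest adjusted permutation p = 0.183). Before adjustment, rho with library size in control dams was 0.507 for TLR4 (permutation p = 0.0277) and 0.475 for CD14 (permutation p = 0.0407).

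TLR2 and TLR4 were at nearly the same median level in control and direct HS dams, and CD14 varied widely within both groups. In control dams, TLR2 ranged from 82.3 CPM to 159 CPM with a median of 111.6 CPM. In direct HS dams, it ranged from 86.1 CPM to 130 CPM with a median of 107.7 CPM. All 12 direct HS dams were inside the range of the control dams, and 5 of them were above the control median. TLR4, the receptor for lipopolysaccharide, ranged from 72.4 CPM to 187 CPM in control dams (median 120.03 CPM) and from 83.8 CPM to 185 CPM in direct HS dams (median 119.5 CPM). Again all 12 direct HS dams were inside the range of the control dams, with 6 of them above its median. CD14 ranged from 84.4 CPM to 336 CPM in control dams (median 165 CPM) and from 104 CPM to 382 CPM in direct HS dams (median 182 CPM). The groups overlapped here too, with 11 of 12 direct HS dams inside the control range. The direct HS dam HS-IU_1800 was above it, and 10 of the 12 were above the control median.

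The same animals stood at the ends of the range for more than one gene. Among control dams, HS-IU_1622 had the highest level of all 3 genes, and HS-IU_1463 had the lowest level of TLR2 and of CD14. Among direct HS dams, HS-IU_1835 was highest and HS-IU_1844 lowest in both TLR2 and TLR4.

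**Figure D1:**
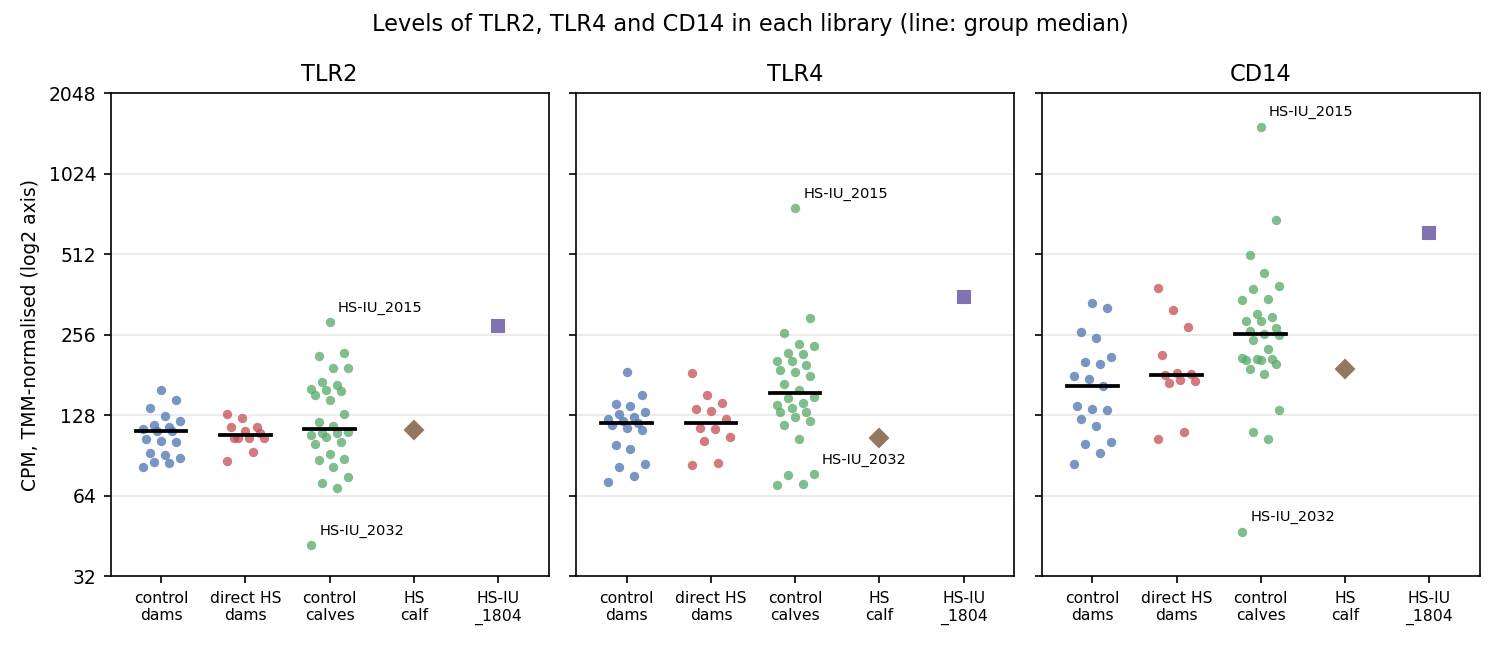
TLR2, TLR4 and CD14 in each library, in TMM-normalised CPM on a log2 axis; each point is 1 animal, black lines are group medians, and the HS calf HS-IU_2048 and the dam HS-IU_1804 without HS status are single points. The ranges of control and direct HS dams overlap for every gene, control calves extend further up and down, and HS-IU_2015 is the highest calf in all 3 panels.

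Direct HS and control dams were compared to see whether the 3 sensors differ with HS status in late pregnancy, without adjustment for season. None of the 3 members was called at an adjusted p below 0.05 by edgeR's quasi-likelihood test (Benjamini-Hochberg adjustment), where 2.66% of the 11645 tested genes were called. This background of 310 genes was not stable, with 130 to 599 called when 1 dam was left out, 503 with DESeq2 and 65 with control calves in the same fit. The mean of TLR2 was 109 ± 12.2 CPM (SD, n = 12) in direct HS dams, against 110 ± 21.4 CPM (SD, n = 19) in controls. Its log2 fold change of -0.02 (SE 0.09, adjusted p = 0.918 in edgeR's test) had a 95% interval from -0.20 to 0.16, or 0.870-fold to 1.11-fold. For TLR4 the means were 123 ± 28.8 CPM and 117 ± 28.3 CPM in the same order, and its log2 fold change was 0.07 (SE 0.12) by edgeR's test (adjusted p = 0.818). The interval of TLR4 ran from -0.18 to 0.31, or 0.882-fold to 1.24-fold.

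Mean CD14 was 206 ± 81.4 CPM in direct HS dams and 176 ± 74.8 CPM in controls. It differed by 0.22 on the log2 scale (SE 0.20, edgeR's adjusted p = 0.583), within the spread between dams. Because CD14 varied more, its interval was wider, from -0.19 to 0.63, and extends to a level 1.55-fold higher with direct HS. For comparison, the 310 genes called between these dams had a median absolute log2 fold change of 0.39, a size that the intervals of TLR2 and TLR4 leave out and that of CD14 includes. With the control calves in the same fit, the intervals were wider, and that of TLR4 (-0.35 to 0.49) then included it too.

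Leaving out 1 dam at a time, none of the 3 genes was called in any of 31 fits. The log2 fold change of TLR4 stayed between 0.01 and 0.13 and that of CD14 between 0.10 and 0.31, with the lowest value for CD14 found without HS-IU_1800. The sign of the TLR2 difference was not stable, since it turned positive without HS-IU_1457, HS-IU_1622 or HS-IU_1844.

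In control calves, TLR4 and CD14 were higher than in control dams, and the levels of all 3 genes covered a wider range. TLR4 ranged from 70.3 CPM to 762 CPM in calves with a median of 155 CPM, against the 72.4 CPM to 187 CPM of control dams. The groups overlapped, with 11 of 30 calves above the highest control dam, 2 below the lowest and 24 above the control dam median. CD14 ranged from 47.1 CPM to 1540 CPM in calves with a median of 258 CPM, against 84.4 CPM to 336 CPM in control dams. Here 8 of 30 calves were above the highest control dam and 26 were above the control dam median, while 1 was below the lowest dam. TLR2 ranged from 41.8 CPM to 287 CPM in calves with a median of 114 CPM, close to the 111.6 CPM of control dams. For this gene 8 of 30 calves were above all control dams and 5 were below all of them, and 15 of 30 were above the control dam median.

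Of the 3 members, 2 were called between control calves and control dams, both higher in calves, where 39.7% of the 11762 tested genes were called and 22.3% were called higher. Calls were thus frequent among all genes in this comparison. Mean CD14 was 312 ± 264 CPM (SD, n = 30) in calves, 1.77-fold the 176 ± 74.8 CPM (SD, n = 19) of control dams by the fitted fold change. Its log2 fold change of 0.83 (SE 0.24, 95% interval 0.35 to 1.30, Benjamini-Hochberg adjusted p = 0.00465, edgeR) was above that of 94.4% of tested genes. Mean TLR4 was 182 ± 123 CPM in calves and 117 ± 28.3 CPM in control dams, a fitted difference of 1.55-fold. On the log2 scale this was 0.63 (SE 0.18, 95% interval 0.27 to 1.00, edgeR's adjusted p = 0.00467), above that of 91.6% of tested genes. The median log2 fold change over all tested genes was 0.03.

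TLR2, the lipoprotein receptor, had 131 ± 53.5 CPM in calves and 110 ± 21.4 CPM in control dams. Its log2 fold change of 0.25 (SE 0.14, adjusted p = 0.156 in edgeR's test) did not pass the threshold. The interval from -0.03 to 0.53 still includes a level up to 1.45-fold higher in calves.

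Part of the size of these differences rested on 1 calf. HS-IU_2015 had 287 CPM of TLR2, 762 CPM of TLR4 and 1540 CPM of CD14, which is 2.27-fold, 4.71-fold and 5.71-fold the mean of the other 29 control calves. Its TMM factor of 0.672 was the lowest of the 63 libraries, where the others ranged from 0.779 to 1.14, and this factor raises its CPM. Scaled by its total reads without TMM, it had 193 CPM of TLR2, 512 CPM of TLR4 and 1034 CPM of CD14. Without HS-IU_2015, the log2 fold change against control dams was 0.19 for TLR2, 0.47 for TLR4 and 0.62 for CD14. The means of the 29 other calves were 126 ± 45.5 CPM for TLR2, 162 ± 58.0 CPM for TLR4 and 269.5 ± 128 CPM for CD14. TLR4 and CD14 were called in 49 of 49 fits that left out 1 animal and TLR2 in 0 of 49.

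HS-IU_2015, HS-IU_2008 and HS-IU_2010 had the most genes at 8-fold or more above the median of the control calves, with 154, 26 and 15 of 11508 genes. The next calf, HS-IU_2039, had 14, so HS-IU_2010 was barely apart from it, and the median calf had 3. Without those 3 calves, the log2 fold change was 0.41 for TLR4 (adjusted p = 0.0152 in edgeR's test) and 0.52 for CD14 (adjusted p = 0.0208), and 0.12 for TLR2 (adjusted p = 0.476). HS-IU_2010 had 219 CPM of TLR2 and 688 CPM of CD14, each second only to HS-IU_2015. Its TLR4 was 205 CPM, with 7 of the other 29 calves above it. At the other end, HS-IU_2032 had the lowest TLR2 (41.8 CPM) and the lowest CD14 (47.1 CPM) of the control calves, from 288 and 324 reads. Its TLR4 of 77.2 CPM was above that of 3 other calves.

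Control calves were also set against direct HS dams, a comparison added after the counts had been seen. In it 33.6% of the 11727 tested genes were called, and 1 of the 3 members was. The log2 fold change of TLR4 was 0.56 (SE 0.23, Benjamini-Hochberg adjusted p = 0.0493, edgeR), just inside the threshold. The call was lost in 26 of 42 fits that left out 1 animal (16 calves and 10 dams), with edgeR's adjusted p of at most 0.0841. In these fits the log2 fold change was lowest without HS-IU_2015, at 0.39, and it was 0.52 or more without any of the other animals that ended the call. It was also lost without normalisation between libraries, at 0.43. For CD14 it was 0.61 (SE 0.29, edgeR's adjusted p = 0.0944) and 0.39 without HS-IU_2015, and for TLR2 it was 0.27 (SE 0.17, edgeR's adjusted p = 0.222). Without HS-IU_2008, HS-IU_2010 and HS-IU_2015, these values were 0.31 and 0.15, and TLR2 was also at 0.15 without normalisation. The comparison shares its calves with the one above and is no independent evidence.

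**Figure D2:**
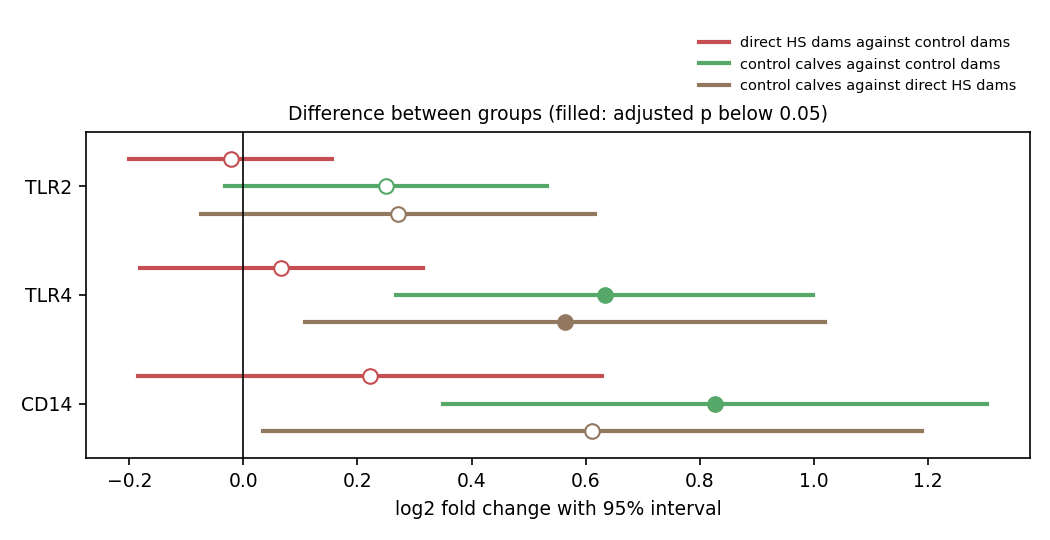
Log2 fold changes of TLR2, TLR4 and CD14 for 3 comparisons, with 95% intervals from edgeR's quasi-likelihood test; filled circles have an adjusted p below 0.05. The intervals of direct HS against control dams include 0 for every gene, and those of TLR4 and CD14 in control calves against control dams lie above 0, from 0.27 to 1.00 and from 0.35 to 1.30.

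In the HS calf HS-IU_2048, TLR2 was at 113 CPM, TLR4 at 105 CPM and CD14 at 191 CPM. All 3 values lay inside the range of the control calves, with 15 of 30 control calves below it for TLR2 and 5 of 30 for TLR4 and for CD14. A single animal allows no test.

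Among control dams and among control calves, the 3 genes rose and fell together across animals. Correlations were computed on log2 CPM within each group, as 9 relations with two-sided permutation tests of 100000 resamples and Benjamini-Hochberg adjustment. In control calves, Pearson's r was 0.840 between TLR2 and TLR4, 0.874 between TLR2 and CD14 and 0.838 between TLR4 and CD14 (n = 30, permutation p = 1e-05 for each, the smallest value that 100000 resamples allow, adjusted p = 3e-05). Spearman's rho was 0.849, 0.833 and 0.677 in the same order (adjusted permutation p = 4.5e-05, 4.5e-05 and 0.000158). Without the 2 calves farthest from the median of the first gene of each pair, r was 0.807, 0.798 and 0.728. Without HS-IU_2015 alone, r was 0.758 between TLR4 and CD14, still past the threshold.

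In control dams, the 2 receptors were more closely tied to each other than either was to CD14. TLR2 and TLR4 had an r of 0.857 and a rho of 0.826 (n = 19, adjusted permutation p = 4.5e-05 and 0.000158). For TLR2 with CD14, r was 0.659 and rho 0.558 (adjusted permutation p = 0.00479 and 0.0206), and for TLR4 with CD14, r was 0.605 and rho 0.561 (adjusted permutation p = 0.00921 and 0.0206). Without the 2 farthest dams, r was 0.778, 0.493 and 0.451 in the same order. The order of these 3 values is a description, since the differences between pairs were not tested. Spearman's rho between CD14 and the receptors passed the threshold in 15 of 19 sets with 1 dam left out, for either receptor. It failed without HS-IU_1463, HS-IU_1467 or HS-IU_1622 for both, without HS-IU_1457 for TLR2 and without HS-IU_1808 for TLR4, with adjusted permutation p of 0.0595 at most and rho of 0.480 at least.

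In the 12 direct HS dams, the relations were less certain. TLR2 and TLR4 had an r of 0.629 (adjusted permutation p = 0.0353) and a rho of 0.503 (adjusted permutation p = 0.111). Without normalisation between libraries the call was lost, with an r of 0.489 (adjusted permutation p = 0.137) and a rho of 0.385. Without HS-IU_1835 and HS-IU_1844, the dams with the highest and the lowest level of both genes, r was 0.176 and the relation no longer held, although leaving out both ends of a range lowers r by itself. With 1 dam left out, r was 0.471 without HS-IU_1844 and 0.480 without HS-IU_1835, both short of the threshold. Without HS-IU_1800 or HS-IU_1837 the threshold was missed too, with r of 0.602 and 0.625 close to the value over all 12. TLR2 and CD14 had an r of 0.544 and a rho of 0.601 (adjusted permutation p = 0.0730 and 0.0538), and r was 0.514 without the 2 farthest dams. Without normalisation between libraries, this rho was 0.0769 and r was 0.437, so the relation by ranks depends on whether libraries are rescaled. With another rescaling (RLE factors), rho was 0.552 and r was 0.554, both short of the threshold. TLR4 and CD14 had an r of 0.328 and a rho of 0.448 (adjusted permutation p = 0.298 and 0.147), and r was 0.241 without the 2 farthest dams. Its rho without normalisation was 0.196, and with 1 dam left out its r ranged from 0.134 without HS-IU_1844 to 0.431 without HS-IU_1835.

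None of these r was shown to differ between groups. Over 6 differences tested by permutation of the group labels, that between control and direct HS dams was largest for TLR4 with CD14, at -0.28 (adjusted permutation p = 0.511). Between control calves and control dams, it was largest for the same pair, at 0.23 (adjusted permutation p = 0.465).

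**Figure D3:**
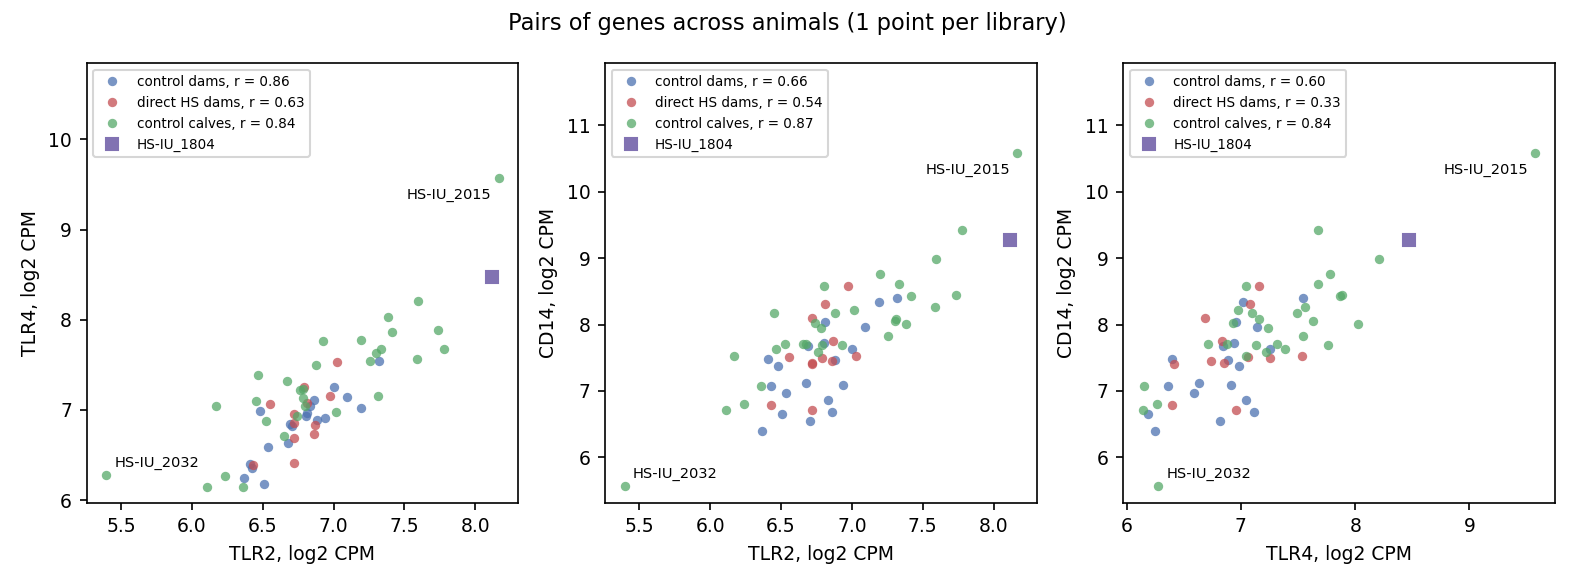
Log2 CPM of each pair of the 3 genes, with 1 point per library coloured by group and Pearson's r of each group in the legend. Control calves spread along a long diagonal in every panel up to HS-IU_2015 at the upper right, and dams lie along its lower and middle stretch. HS-IU_2032 has the lowest TLR2 and CD14 but not the lowest TLR4.

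To see how close these relations are beside those of other genes, rho was computed between each member and 11507 genes tested in both dam and calf comparisons. As a description, TLR4 was among the genes closest to TLR2, since 13 genes had a higher rho with TLR2 in control dams and 19 in control calves. In direct HS dams, 866 genes (7.53%) had a higher rho with TLR2 than TLR4 did. TLR4 and CD14, the receptor and its co-receptor, were less close. In this pair, 259 genes in control calves, 747 in control dams and 1100 in direct HS dams had a higher rho with TLR4 than CD14 did. CD14 was close to TLR2 in control calves, where 36 genes had a higher rho, and less so in control dams, where 655 genes (5.69%) did, and in direct HS dams, where 429 genes (3.73%) did. A rho above 0.5 with TLR2 was found for 8.54% of genes in control dams, 7.79% in direct HS dams and 11.8% in control calves, and the median rho over genes was near 0 in each group. These relations share the libraries and their cell mixture.

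The genes most like each member were taken by the mean of the 3 within-group rho. For TLR2 the closest was ENSBTAG00000031385, with a mean rho of 0.849 (0.868 in control dams, 0.762 in direct HS dams and 0.916 in control calves). The 5 genes closest to TLR2 and the 5 closest to TLR4 had 3 genes in common, ENSBTAG00000031385 among them. For CD14 the closest was ENSBTAG00000019669, with a mean rho of 0.850 (0.877 in control dams, 0.776 in direct HS dams and 0.896 in control calves). The 5 genes closest to CD14 had 0 in common with either receptor. By the same mean, 25 genes were closer to TLR2 than TLR4 was and 91 were closer than CD14.

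The proportions of the 3 transcripts within a library do not depend on the normalisation between libraries, so they were compared as log2 ratios. A ratio of 2 genes includes their transcript lengths, so its difference between groups can be read and its level cannot. The log2 ratio of TLR4 over TLR2 ranged from -0.32 to 0.51 in control dams and from -0.21 to 1.41 in control calves, with means of 0.07 ± 0.19 (SD, n = 19) and 0.39 ± 0.38 (SD, n = 30). Its groups overlapped, and 22 of 30 calves were above the control dam mean. The difference of 0.33, or 1.25-fold, passed the two-sided permutation test (p = 0.00085, adjusted p = 0.00255 over 6 comparisons). The log2 ratio of CD14 over TLR2 was 0.58 ± 0.46 in control dams (-0.19 to 1.23) and 1.07 ± 0.46 in control calves (0.17 to 2.42), with 27 of 30 calves above the control dam mean. This difference of 0.50, or 1.41-fold, also passed (permutation p = 0.00046, adjusted p = 0.00255). Both ratios were highest in HS-IU_2015, and without it the differences were 0.29 and 0.45, still past the threshold, as they were in 49 of 49 sets with 1 animal left out.

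CD14 over TLR4 was not shown to differ. Its log2 ratio was 0.51 ± 0.47 in control dams and 0.68 ± 0.48 in control calves, a difference of 0.17 (adjusted permutation p = 0.340). Of the 3 genes, TLR4 and CD14 were thus higher in calves relative to TLR2. Between direct HS and control dams, the log2 ratio of TLR4 over TLR2 differed by 0.08, that of CD14 over TLR2 by 0.25 and that of CD14 over TLR4 by 0.17. None of these passed, with adjusted permutation p from 0.328 to 0.367. With 1 dam left out, they ranged from 0.05 (without HS-IU_1835) to 0.12 (without HS-IU_1853), from 0.18 (without HS-IU_1800) to 0.32 (without HS-IU_1823) and from 0.10 (without HS-IU_1800) to 0.25 (without HS-IU_1823) in the same order.

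**Figure D4:**
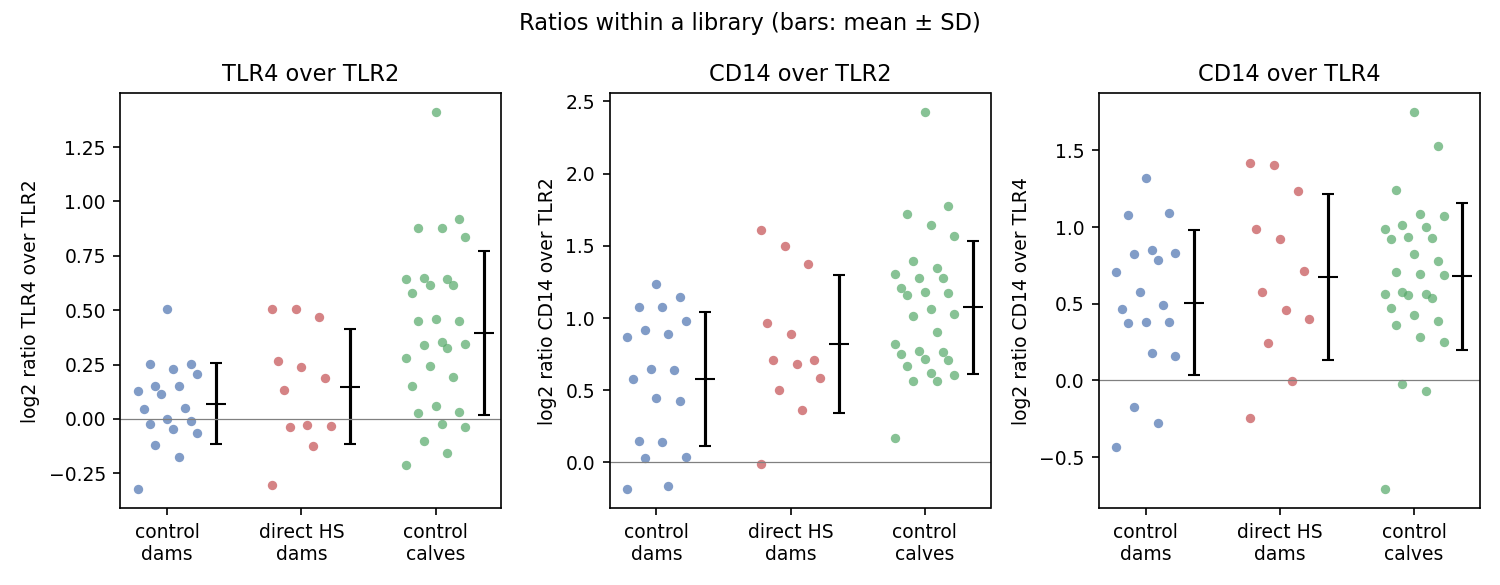
Log2 ratios of the 3 pairs of genes within each library, with 1 point per animal and mean ± SD beside each group. Calves have higher ratios of TLR4 over TLR2 and of CD14 over TLR2 than control dams, by 0.33 and 0.50 on the log2 scale, and the groups overlap in all 3 panels.

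The spread between animals was the other measure in which calves and dams were compared. For TLR2, the mean absolute deviation of log2 CPM from the group median was 0.466 in control calves and 0.217 in control dams, a difference of 0.25 (permutation p = 0.00619, adjusted p = 0.0371 over 6 comparisons). The call was close to the threshold, and it was lost in 21 of 49 sets with 1 animal left out (12 calves and 9 dams), with adjusted permutation p of at most 0.0732. In these 49 sets the difference itself stayed between 0.21 and 0.26. Without HS-IU_2008, HS-IU_2010 and HS-IU_2015, it was 0.19 (adjusted permutation p = 0.156).

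For TLR4, the mean absolute deviation was 0.504 in calves and 0.265 in control dams (adjusted permutation p = 0.121). For CD14 it was 0.589 in calves and 0.492 in control dams (adjusted permutation p = 0.669), so CD14 was already variable in dams. The CD14 difference of 0.097 was 0.028 without HS-IU_2015 and 0.012 without HS-IU_2008, HS-IU_2010 and HS-IU_2015. Direct HS dams had deviations of 0.122 for TLR2, 0.261 for TLR4 and 0.376 for CD14, and none differed from control dams past the threshold (adjusted permutation p from 0.157 to 0.954). With 1 dam left out, the CD14 difference of -0.116 ranged from -0.180 without HS-IU_1800 to -0.083 without HS-IU_1568.

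A wider spread in calves was common to most genes. Of 3262 genes whose mean count was 500 or more, 2763 (84.7%) had a larger SD of log2 CPM in control calves than in control dams, with a median ratio of 1.32. The ratio was 2.17 for TLR2, 1.95 for TLR4 and 1.48 for CD14. Part of it rested on HS-IU_2015. The SD in control calves was 0.591 for TLR2, 0.694 for TLR4 and 0.880 for CD14 with this calf. It was 0.552, 0.558 and 0.745 in the same order without it, against 0.272, 0.356 and 0.595 in control dams. The SD of CD14 was larger than that of 95.6% of these genes in control dams, 95.5% in direct HS dams and 95.3% in control calves, at 0.59, 0.55 and 0.88. TLR2 had a larger SD than 60.1% of them in control dams, 20.6% in direct HS dams and 83.6% in control calves. For TLR4 these shares were 78.5%, 79.6% and 89.7% in the same order. As a description, the place of TLR2 thus moved most of the 3 genes, and a change of place was not tested.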

How the data were processed

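Single-end libraries were made from polyadenylated leukocyte RNA with the Lexogen SENSE kit. The authors trimmed the reads with cutadapt 4.2, checked them with FastQC 0.12.1, aligned them with STAR 2.7.11a (GeneCounts option) on ARS-UCD1.2, and deposited raw read counts per gene and library; the strand column is not given in the sources used here. Without it, reads of overlapping antisense genes may be included. Groups were taken from the labels. Genes with a mean count below 14 in the libraries compared were left out.

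Between groups, edgeR 4.0.16 was run under R 4.3.3 (TMM, quasi-likelihood test, Benjamini-Hochberg adjustment over all tested genes, no covariates, since those of the study are not in the labels). The p-values measure the spread between animals. Log2 CPM used a prior count of 2. Correlations, ratios and spreads were tested in Python 3.11 by permutation, and figures were drawn with matplotlib 3.10.9. The scripts were tested on simulated data. Alternatives included DESeq2 1.42.0, limma-voom 3.58.1, other scaling, other filters and each animal left out in turn.

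The members and lists were chosen with earlier results of these data known. Named genes were to be the members, genes of fixed lists and, for each member, the 5 with the highest mean rho, of which 2 are printed. The reference table gave Ensembl identifiers for 0 of its 37063 genes, so 16 lists with 127 symbols, cell type markers and promoters were not used here.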

Additional observations from a re-analysis of the deposited data

Results flagged for a closer look

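The dam HS-IU_1804, which entered no comparison because the labels give no HS status for it and the study had removed it for lying among the calves by expression, had levels of all 3 genes above those of every other library labelled as a dam. It had 277 CPM of TLR2, where the highest of the 19 control dams had 159 CPM and the highest of the 12 direct HS dams 130 CPM. Its TLR4 was 355 CPM, against at most 187 CPM in control dams and 185 CPM in direct HS dams. Its CD14 was 618 CPM, against at most 336 CPM and 382 CPM. These levels were 2.51-fold, 3.03-fold and 3.52-fold the means of the control dams. Among the 30 control calves, 1 had more TLR2, 1 more TLR4 and 2 more CD14. Its TMM factor was 0.779, and without TMM its values were 216 CPM, 276 CPM and 482 CPM. It is a single library with no replicate, and the part of its cell composition was not tested.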

How the results depend on the processing

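Over 42 results and 1514 alternative values, 1419 kept their direction and their side of the threshold or, for counts of genes, stayed within 1.5 times. Most of these values leave out 1 animal and share nearly all their data with the main value, so they are no independent checks. TLR4 and CD14 were called higher in control calves than in control dams under 11 of 11 alternatives, with log2 fold changes from 0.41 to 0.65 and from 0.52 to 0.84, and TLR2 under 0 of 11 (0.10 to 0.26). Among these alternatives, that of all dams against all calves also held the direct HS dams and the HS calf. In TLR2, TLR4 and CD14, direct HS gave no call under 10 of 10 alternatives. The number of genes called between direct HS and control dams was 310, against 503 with DESeq2, 136 without the filter on low counts and 65 with the 3 groups fitted together. With 1 dam left out it was lowest without HS-IU_1516 (130) and highest without HS-IU_1568 (599). The log2 fold change of TLR2 between these dams ranged from -0.04 to 0.03 with 1 dam left out and was 0.0037, 0.026 and 0.0050 where positive. The difference in the spread of TLR4 between these dams ranged from -0.043 to 0.021 and turned positive in 8 of 31 sets. The call of TLR4 in calves against direct HS dams was lost without normalization (0.43, adjusted p = 0.0672 in edgeR's test), without HS-IU_2015 (0.39), in 26 of 42 fits with 1 animal left out (0.39 to 0.63 over all 42) and without HS-IU_2008, HS-IU_2010 and HS-IU_2015 (0.34, adjusted p = 0.105). That of the larger spread of TLR2 in calves was lost without these 3 calves (0.19), and ranged from 0.213 to 0.265 with 1 animal left out. The r of TLR2 and TLR4 in direct HS dams was 0.489 without normalization (adjusted permutation p = 0.137) and from 0.471 to 0.757 with 1 dam left out. With 1 dam left out, r of TLR2 and CD14 in these dams ranged from 0.368 to 0.650 and rho from 0.509 to 0.691, past the threshold in 1 and 3 of 12 sets; without normalization they were 0.437 and 0.0769 (adjusted permutation p = 0.170 and 0.818), and rho of TLR4 and CD14 was 0.196. In control dams, rho of CD14 ranged from 0.480 to 0.620 with TLR2 and from 0.484 to 0.666 with TLR4. The cause was not tested. Each member had at least 288 reads in each library; in correlations, ratios and spreads, depth was not adjusted for. Marker sums as covariates and correlations with marker sums were not run, since the identifiers were not paired with names. No paired analysis was possible because the labels give no replicate numbers and pair no dam with a calf.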
